A study of Homo sapiens with 4 samples.

Results

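The muscarinic acetylcholine receptors are a family of 5 genes, CHRM1 to CHRM5, and all 5 were measured in HEK293 cells. Members were found by the RefSeq accession at the start of each probe name, which led to 5 of the 17217 named genes on the array. Each member had 1 target of 3 probes, which gave 15 probes in all. HEK293, a line from human embryonic kidney that carries adenovirus DNA, commonly serves as a host for cloned receptors. According to the labels the 4 samples are biological replicates without treatment, grown in DMEM with fetal bovine serum and antibiotics, and each came from its own plate and extraction. Cells were taken at confluence from 1 line. The p-values thus rest on the spread between plates of that line, pooled over all genes and not taken for each gene. Labelled cDNA from each plate was hybridised to 1 array of 60-base probes, and values are log2 intensities.

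Muscarinic receptors answer to acetylcholine and belong to the rhodopsin-like G protein-coupled receptors. CHRM1, CHRM3 and CHRM5 encode the M1, M3 and M5 receptors, which couple mainly to Gq proteins, activate phospholipase C beta and release calcium from internal stores. CHRM2 and CHRM4 encode the M2 and M4 receptors, which couple mainly to Gi/o proteins and lower the activity of adenylyl cyclase. The M3 receptor is best known from smooth muscle and glands, the M2 receptor from the heart, and the M1 and M4 receptors from the brain.

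The 250 bases before the RefSeq start of 3 members are shown because these windows span the range of CG content in the family. CHRM3 was the member with the highest signal, CHRM4 had the most CG dinucleotides and CHRM5 the fewest. The sequences are from RefSeq on GRCh38.p14 and are written 5′ to 3′ on the strand of the gene, with CG dinucleotides in capitals. They are chr1:239386318-239386567 on the plus strand for CHRM3, chr11:46391777-46392026 on the minus strand for CHRM4 and chr15:33968247-33968496 on the plus strand for CHRM5.
CHRM3: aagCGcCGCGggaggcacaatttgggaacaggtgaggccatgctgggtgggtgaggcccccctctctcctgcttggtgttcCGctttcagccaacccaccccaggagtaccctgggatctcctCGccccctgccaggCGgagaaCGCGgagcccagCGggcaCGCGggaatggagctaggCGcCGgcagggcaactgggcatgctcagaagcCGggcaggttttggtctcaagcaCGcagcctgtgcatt
CHRM4: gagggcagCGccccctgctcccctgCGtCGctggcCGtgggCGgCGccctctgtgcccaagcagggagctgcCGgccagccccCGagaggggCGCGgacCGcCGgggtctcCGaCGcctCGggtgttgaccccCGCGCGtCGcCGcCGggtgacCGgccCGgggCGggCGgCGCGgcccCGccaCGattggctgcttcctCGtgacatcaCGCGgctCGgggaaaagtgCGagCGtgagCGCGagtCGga
CHRM5: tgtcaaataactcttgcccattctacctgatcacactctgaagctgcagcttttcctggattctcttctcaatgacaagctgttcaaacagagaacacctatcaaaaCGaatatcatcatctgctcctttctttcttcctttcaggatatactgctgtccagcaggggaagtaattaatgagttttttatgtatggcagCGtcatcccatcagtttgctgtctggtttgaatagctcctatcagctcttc

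All 5 members had at least 1 such window in the RefSeq table, and 7 windows were found because CHRM2 had 3. CHRM3 held 15 CG dinucleotides, CHRM4 held 38, CHRM5 held 2 and CHRM1 held 7, while the windows of CHRM2 held 6, 10 and 17. The median over all 35116 windows was 11. The CHRM4 window had more CG than 96.7% of all windows, yet the member with the highest signal, CHRM3, was near the middle at 57.1%. The letters GGGCGG, on either strand, stood in the windows of CHRM4 and CHRM2 and in 42.6% of all windows. The letters TATAAA, on either strand, stood in none of the 7 and in 10.7% of all windows. These matches describe the letters only.

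The question for each receptor was whether its signal exceeded that of genes the cells were not thought to transcribe. The study took seminal protein genes for this purpose and set the baseline of an array at their mean plus 2 SD. Among the matched controls AFG2A and SPATA13 had mean levels of 9.97 and 9.72 log2 units, and the others lay from 6.53 to 7.25. The baseline thus depends strongly on those 2 genes, and alternatives without them are given below. With all matched controls the baseline came to 9.47, 9.94, 10.69 and 10.32 log2 units on replicates 1 to 4. A gene was called detected if its level minus the baseline, averaged over arrays, was above 0. This difference is the distance of the gene. Since affinity varies from probe to probe, a distance does not measure how much more of 1 message than of another the cells held.

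CHRM3 was the 1 muscarinic receptor detected. Its distances on replicates 1 to 4 were 0.37, 1.24, -0.08 and 1.77 log2 units. The mean was 0.82 ± 0.84 (SD, n = 4), so the distance was within the spread between arrays. It lay above the baseline on 3 of 4 arrays, and replicates 2 and 4 stood higher than replicates 1 and 3. The one-sided limma test, fitted over all 17217 genes, gave an adjusted p of 0.0214. That test used the standard error shared by all genes, 0.351, and not the spread of CHRM3 itself. CHRM3 stayed above 0 but no longer passed the test without replicate 2, at a distance of 0.68 (limma adjusted p = 0.130), and without replicate 4, at 0.51 (limma adjusted p = 0.263). With a baseline of 3 SD the distance of CHRM3 was -0.49.

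The other members lay below the baseline on each of the 4 arrays. CHRM4 had distances of -2.29, -2.79, -3.14 and -2.17 log2 units on replicates 1 to 4, with a mean of -2.59 ± 0.45 (SD, n = 4). CHRM1 had distances of -2.73, -2.87, -2.79 and -2.66, with a mean of -2.76 ± 0.09 (SD, n = 4), the narrowest spread of the family. As did CHRM2 and CHRM5, both lay more than 2 log2 units below the line on every array. CHRM2 had distances of -2.66, -3.41, -2.71 and -3.23, with a mean of -3.00 ± 0.37 (SD, n = 4). CHRM5 had distances of -3.18, -3.69, -3.69 and -2.45, with a mean of -3.25 ± 0.59 (SD, n = 4), and its value on replicate 4 was the highest. Ordered by mean distance the family ran CHRM3, CHRM4, CHRM1, CHRM2 and CHRM5. CHRM3 was above the other members on every array, by ranges that do not overlap, while each neighbouring pair among the other members overlapped in range.

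**Figure D1:**
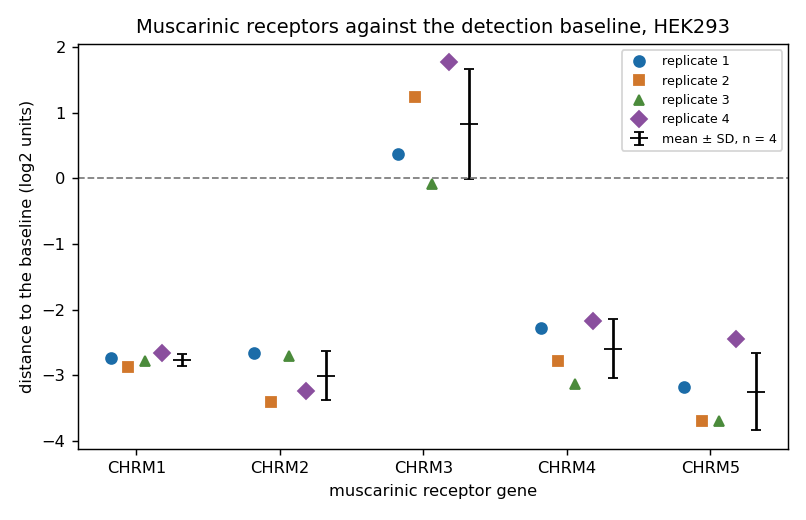
Distance to the detection baseline (log2 units, y axis) of the 5 muscarinic receptor genes (x axis) on each of 4 HEK293 arrays, with the mean and SD beside the points and the baseline drawn as a dashed line at 0. CHRM3 ran from -0.08 to 1.77, and the other members all lay at -2.17 or lower.

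Read against all genes, 1 of 5 members was detected while the share over the array was 52.7%. Above the baseline on all 4 arrays lay 0 of 5 members and 45.0% of all genes, and the limma test called 1 of 5 members and 45.9% of all genes. The median distance was -2.76 log2 units over the members and 0.26 over all genes. With olfactory receptor genes as the controls in place of the seminal genes, CHRM3 stood 2.91 log2 units above the line and the other 4 members stayed below it. The same held without AFG2A and SPATA13, the controls with the highest levels, where CHRM3 stood at 3.15. In rank, CHRM3 had a higher level than 44.6%, 57.9%, 51.6% and 70.3% of all genes on replicates 1 to 4. CHRM5 had a higher level than 6.73%, 6.92%, 7.16% and 24.3% of genes on replicates 1 to 4.

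Probes showed how the CHRM3 value was made up. Its probes are numbered here in the order of their names. Probe 1 read 10.78, 11.98, 11.50 and 13.35 log2 units on replicates 1 to 4, above the baseline on all 4 arrays. Probe 3 read 9.77, 11.31, 10.38 and 10.77 and lay above the baseline on 3 of 4. Probe 2 read 6.77, 8.63, 8.82 and 9.81 and lay below it on all 4. Replicate 1 was the lowest array for each of the 3 probes, and the highest was replicate 4 for probes 1 and 2 and replicate 2 for probe 3. Averaged over arrays, probe 1 gave 69.6% of the summed linear signal of the target, probe 3 gave 23.6% and probe 2 gave 6.76%.

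Whether CHRM3 was detected depended on the probe, and whether it passed the limma test also depended on how probes were combined. Probe 1 alone stood 1.80 ± 0.96 log2 units above the baseline (SD, n = 4), probe 3 at 0.45 ± 0.70 (SD, n = 4) and probe 2 at -1.60 ± 0.92 (SD, n = 4). Log2 of the mean of linear values gave 0.82, while the mean of log2 values gave 0.55 (limma adjusted p = 0.137) and the median of log2 values 0.59 (limma adjusted p = 0.120). The range between the 3 probes of CHRM3, averaged over arrays, was 3.39 log2 units, wider than in 86.8% of named targets, whose median was 1.68.

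The other members' probes read low throughout. Their 12 probes gave 48 values between 5.49 and 8.53 log2 units, and 0 of the 48 lay above the baseline of their array. The range between the 3 probes was 1.26 log2 units for CHRM1, 1.47 for CHRM2, 1.14 for CHRM4 and 1.17 for CHRM5, each below the median of named targets.

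**Figure D2:**
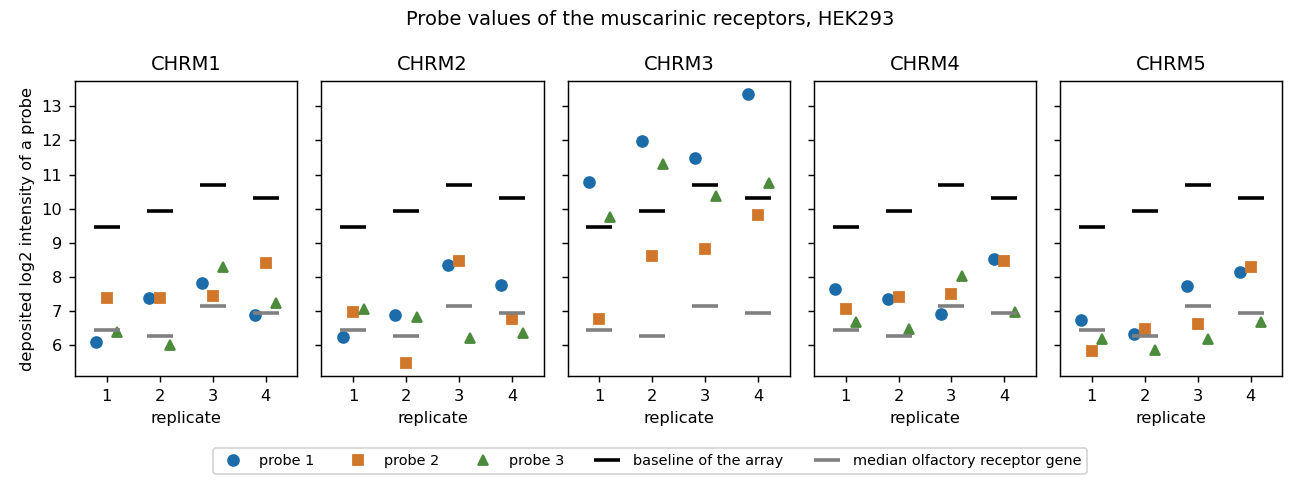
Deposited log2 intensity (y axis) of each probe on each replicate (x axis), in a panel for each muscarinic receptor, with a black bar for the baseline of the array and a grey bar for the median olfactory receptor gene. In CHRM3 probe 1 lies above the black bar on all 4 arrays and probe 2 below it. The probes of the other members lie from 5.49 to 8.53, some below and some above the grey bar and all below the black bar.

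Olfactory receptor genes, which serve smell and of which 364 were on the array, gave a second view of the low end. Their median level was 6.44, 6.27, 7.14 and 6.95 log2 units on replicates 1 to 4, and 1 of them was detected (0.27%, beside 52.7% of all genes). CHRM3 had levels of 9.84, 11.18, 10.61 and 12.09 on those arrays, which put it above 363 of the 364 on replicates 1 and 2 and above 364 on replicates 3 and 4. Its difference from the olfactory median was 4.23 ± 0.92 log2 units (SD, n = 4), which exceeded the SD over arrays. The levels of the other members lay among these genes. CHRM4 stood 0.81 ± 0.33 log2 units above the olfactory median (SD, n = 4), CHRM1 0.64 ± 0.23 (SD, n = 4), CHRM2 0.40 ± 0.31 (SD, n = 4) and CHRM5 0.16 ± 0.51 (SD, n = 4). By mean level, 26 olfactory receptor genes lay at or above CHRM4, 37 at or above CHRM1, 57 at or above CHRM2 and 112 at or above CHRM5.

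The arrays fell into pairs that shared a distribution of values, replicates 1 and 2 and replicates 3 and 4, and the low end of the latter pair was raised. The lower quartile of all probes was 6.77 log2 units in the former pair and 7.37 in the latter. In level, CHRM1 stood at 6.73, 7.06, 7.90 and 7.66 on replicates 1 to 4, and its pair means differed by 0.88, beside 0.69 for the olfactory median. CHRM5 ranged in level from 6.25 on replicate 2 to 7.87 on replicate 4, with a difference of 1.17 between pair means. The distance of CHRM3 was 0.81 within replicates 1 and 2 (limma adjusted p = 0.0826) and 0.84 within replicates 3 and 4 (limma adjusted p = 0.106). It was 0.14 over replicates 1 and 3 and 1.51 over replicates 2 and 4. Among neuronal markers NEFM, a neurofilament gene, was instead high on replicates 1 and 3, with distances of 4.10, -1.62, 2.40 and -2.24 log2 units, and its part in the CHRM3 result was not tested.

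Some members share their genomic interval with another gene, and cDNA was made double-stranded before labelling, so that signals from either strand cannot be told apart on these probes. All of CHRM5 lies within the interval of AVEN, a gene for an apoptosis inhibitor, which was detected at distances of 2.72, 2.40, 0.68 and 1.20 log2 units on replicates 1 to 4. CHRM5 was low on all 4 arrays, as given above. CHRM4 shares 49 bases with MDK, the gene for the growth factor midkine, whose distances were 4.57, 3.31, 3.31 and 3.04. CHRM1, CHRM2 and CHRM3 overlap genes for noncoding RNAs, such as CHRM3-AS1 and CHRM3-AS2, for which no named target was measured. Probe sequences were not used here, so whether a probe lies in a shared stretch was not tested.

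CHRM3 was then set among the other receptors for amines, the nearest relatives of the family. Of 31 listed adrenergic, dopamine, histamine, serotonin and trace amine receptors 30 were matched, and HRH2 was not. Of the 30, 1 was detected (3.33%, beside 52.7% of all genes). It was the alpha-adrenergic receptor ADRA1B, whose distances were 1.14, 0.13, 0.79 and 0.04 log2 units on replicates 1 to 4. Its mean was 0.52 ± 0.53 (SD, n = 4, limma adjusted p = 0.143). ADRA1B thus lay above the baseline on all 4 arrays and missed the test, while CHRM3 passed the test and missed 1 array. The test gave every gene the same standard error, so passing it reflects the mean distance alone and not a gene's own spread. CHRM3 ranked first of 35 aminergic receptors by mean distance and ADRA1B was number 2. Their order changed between arrays, with ADRA1B higher on replicates 1 and 3 and CHRM3 higher on replicates 2 and 4. The serotonin receptor HTR7 followed in rank at -1.01 ± 0.45 (SD, n = 4). HTR2B and HRH3 lay above the baseline on replicate 1 alone, with mean distances of -1.70 and -1.22. HTR2B had distances of 0.32, -3.20, -0.58 and -3.36 on replicates 1 to 4, so it was higher on replicates 1 and 3. CHRM4, CHRM1, CHRM2 and CHRM5 took places 15, 17, 19 and 27. The median of the 30 was -2.91 log2 units, close to that of the members.

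**Figure D3:**
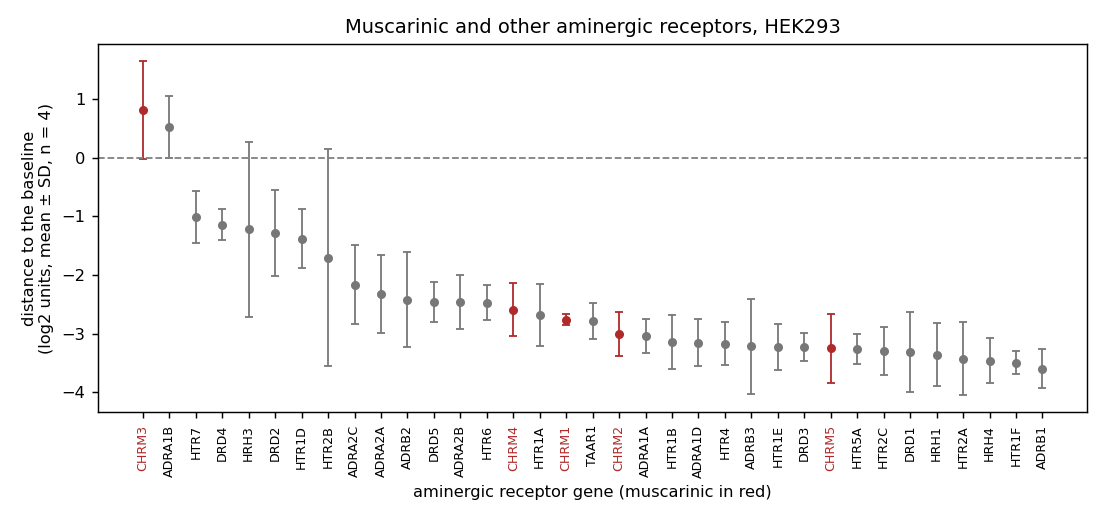
Mean distance to the baseline with SD over 4 arrays (log2 units, y axis) for 35 aminergic receptor genes ordered by that mean (x axis), muscarinic receptors in red. CHRM3 at 0.82 and ADRA1B at 0.52 are above the dashed baseline, and the next gene, HTR7, is at -1.01.

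Genes through which the members act were counted next, and each count is to be read against the shares over all genes, 52.7% detected and 45.9% past the limma test. On the Gq side 7 of 11 genes for alpha subunits, phospholipase C beta and calcium release channels were detected (63.6%) and 6 passed the test, a share near that of all genes. GNA11, a Gq-class alpha subunit, stood at 3.82, 3.23, 2.40 and 2.89 log2 units on replicates 1 to 4. GNAQ, its close relative, stood at 3.19, 2.83, 1.43 and 2.36. Both were above the baseline on every array, whereas GNA14 and GNA15, alpha subunits of the same class, stood at -1.15 ± 0.65 and -2.08 ± 0.69 (SD, n = 4 for each). Of the phospholipases, which cut a membrane lipid into inositol trisphosphate and diacylglycerol, PLCB3 stood at 2.14 ± 0.32 (SD, n = 4) and PLCB1 at 0.65 ± 1.00 (SD, n = 4, limma adjusted p = 0.0697). PLCB4 and PLCB2 lay at -0.95 and -2.78. All 3 inositol trisphosphate receptors, the channels of the calcium store, were detected, ITPR3 at 2.75 ± 0.41, ITPR2 at 1.51 ± 0.73 and ITPR1 at 1.42 ± 1.24 (SD, n = 4 for each), the last below the baseline on replicate 3.

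Downstream of these, 5 of 7 protein kinase C genes that answer to diacylglycerol were detected (71.4%, beside 52.7% of all genes) and 4 passed the test, led by PRKCA at 3.35 ± 0.62 and PRKCD at 2.81 ± 0.36 (SD, n = 4 for each). For store-operated calcium entry 3 of 5 genes were detected (60%, near the 52.7% of all genes) and 2 passed. These were the store sensor STIM1 at 3.57 ± 0.64 and the channel ORAI1 at 1.19 ± 0.53 (SD, n = 4 for each), while STIM2 lay at -2.62 ± 1.33 (SD, n = 4).

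On the side of CHRM2 and CHRM4, 3 of 5 Gi/o alpha subunits were detected (60%, near the 52.7% of all genes) and passed the test, GNAI2 at 3.77 ± 0.54, GNAZ at 2.05 ± 0.64 and GNAI3 at 1.46 ± 0.56 (SD, n = 4 for each). GNAO1, the form abundant in brain, lay at -1.83 ± 0.45 (SD, n = 4). Of 9 adenylyl cyclases, which make cyclic AMP, 5 were detected (55.6%, near the 52.7% of all genes) and passed, from ADCY6 at 2.29 ± 0.73 to ADCY3 at 0.94 ± 0.70 (SD, n = 4 for each). Of 8 potassium channel genes that muscarinic receptors govern in nerve and heart 1 was detected (12.5%, beside 52.7% of all genes). It was KCNQ5, of the M-current family, at distances of -0.12, 2.05, 1.57 and 2.42 log2 units on replicates 1 to 4, lowest on replicate 1. KCNQ3 and the GIRK genes KCNJ3, KCNJ5, KCNJ6 and KCNJ9 had means from -3.36 to -2.95.

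Regulators of active receptors gave 6 detected of 9 (66.7%, beside 52.7% of all genes), with 5 past the test. GPCR kinases tag active receptors, and GRK6, GRK5 and GRK3 stood at 1.85 ± 0.50, 1.84 ± 0.38 and 1.59 ± 0.60 (SD, n = 4 for each). CSNK1A1, a casein kinase known to phosphorylate the M3 receptor, stood at 1.57 ± 0.69 (SD, n = 4). The arrestin ARRB2 stood at 4.79 ± 0.64 (SD, n = 4) and ARRB1 at 0.68 ± 0.60 (SD, n = 4, limma adjusted p = 0.0572). GRK2 lay at -3.50 ± 0.68 (SD, n = 4), below the mean of every member. RGS2, which shortens Gq signals, lay at -0.27 ± 0.64, and RGS4 at -2.45 ± 0.27 (SD, n = 4 for each).

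**Figure D4:**
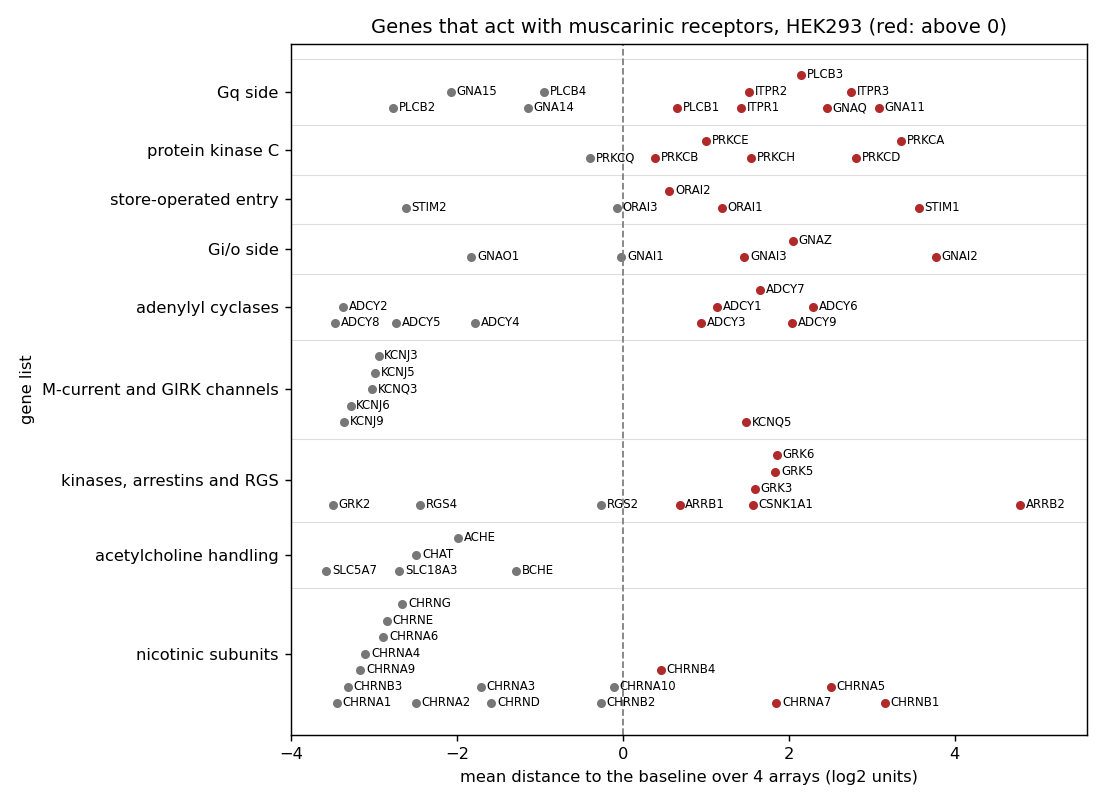
Mean distance to the baseline over 4 arrays (log2 units, x axis) of genes that act with muscarinic receptors, grouped by list (y axis), red where the mean is above the dashed baseline at 0, with 3 listed genes not drawn. On the Gq side GNA11 is highest at 3.08 and ITPR3 follows at 2.75, and all 5 genes of acetylcholine handling lie below 0.

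The ligand side was then examined. None of 5 genes for acetylcholine synthesis, transport and breakdown was detected, beside 52.7% of all genes. None passed the limma test, and 0 had an unadjusted p under 0.05. The synthetic enzyme CHAT lay at -2.49 ± 0.47, the vesicular transporter SLC18A3 at -2.70 ± 0.54, the choline transporter SLC5A7 at -3.58 ± 0.33 and the esterase ACHE at -1.99 ± 0.56 (SD, n = 4 for each). BCHE, the other cholinesterase, had distances of -3.33, 1.10, -3.41 and 0.49 log2 units on replicates 1 to 4. It was above the baseline on replicates 2 and 4, the arrays on which CHRM3 was highest.

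Nicotinic receptors are ion channels that answer to the same ligand. Of 16 subunit genes 4 were detected (25%, beside 52.7% of all genes), and 3 of them passed the test and were above 0 on each array. Over all genes 45.9% passed the test. CHRNB1, a subunit of the muscle receptor, stood at 3.16 ± 0.74, CHRNA5 at 2.51 ± 0.72 and CHRNA7 at 1.85 ± 0.34 (SD, n = 4 for each). CHRNA7 has a partial copy elsewhere in the genome, so its probes may read both. The remaining detected subunit, CHRNB4, had a distance of 0.45 ± 0.64 (SD, n = 4) and a limma adjusted p of 0.203. The partners of CHRNB1 in muscle, CHRNA1, CHRND, CHRNE and CHRNG, lay between -3.45 and -1.59.

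The pattern of CHRM3 over the 4 arrays was compared with 151 genes of the lists used here by the root mean square difference of log2 levels. The 3 nearest were ARRB1 at 0.31, CHRNB4 at 0.43 and the kidney development gene WT1 at 0.44 log2 units. ARRB1 had levels of 9.99, 11.05, 10.60 and 11.51 on replicates 1 to 4, in the same order of arrays as CHRM3. Among all 17212 other genes, 4 were nearer to CHRM3 than ARRB1 was. The measure covers 4 arrays and describes likeness of level only.

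The label was checked against marker genes. Their counts are to be read beside the 52.7% of all genes detected and the 45.9% past the limma test. Of 5 nephron lineage genes WT1 and SIX2 were detected, at 0.81 ± 1.03 and 0.04 ± 0.45 log2 units (SD, n = 4 for each), and PAX2, PAX8 and LHX1 were not. Of 9 genes of differentiated kidney 1 was detected, LRP2 at 1.27 ± 0.68 (SD, n = 4), and UMOD, AQP1 and NPHS1 were among those below the baseline. Of 6 neuronal genes 4 were detected and 3 passed the limma test, NEFL at 4.01 ± 0.56, INA at 2.41 ± 1.04 and NEFH at 1.89 ± 0.86 (SD, n = 4 for each). NEFM, at 0.66 ± 3.08 (SD, n = 4, limma adjusted p = 0.0644), was above the baseline on 2 arrays, and SNAP25 and STMN2 lay at -1.40 and -3.12. Smooth muscle, where the M3 receptor is known, gave 1 of 4, MYH11 at 0.39 ± 0.42 (SD, n = 4), and its genes CNN1, DES and ACTG2 lay below the baseline by their means. None of 4 leukocyte and none of 3 endothelial markers was detected, and of 5 fibroblast markers COL1A1 was, at 0.37 ± 1.19 (SD, n = 4).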

How the data were processed

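Total RNA from 4 HEK293 plates was copied into double-stranded cDNA with an oligo(dT) primer, labelled with Cy3 and hybridised in 1 colour to NimbleGen arrays designed on HG18. The authors deposited 1 log2 intensity per probe and array. Images were quantified with the maker's software and the values log2 transformed. The submitters' processing notes also name RMA, with no version. Sorted values lay within 0.01 log2 units at 99.97% of ranks for replicates 1 and 2, at 99.99% for replicates 3 and 4 and at 1.23% to 1.25% between these pairs, so the arrays appear to have been normalized in 2 pairs. Spot background and saturation were not used here, and the number of arrays limits the precision.

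Of 24000 targets 19125 were matched by accession to a RefSeq table (GRCh38.p14), giving 17217 genes. That assembly differs from the design's, so that table served only for names and overlaps. A target's level was log2 of the mean of its linear probe values, and a gene's level the mean of its targets. Of the 11 seminal control genes 10 were matched. The baseline, mean plus 2 SD of the controls on each array, was subtracted, and limma 3.58 in R 4.3 tested the mean distance above 0 one-sided over all genes with Benjamini-Hochberg adjustment at 0.05. Its prior degrees of freedom were infinite, which gave every gene a standard error of 0.351. Errors of the baseline are shared by all genes of an array, so the tests were not independent. With 4 arrays the smallest p of an exact one-sided sign-flip test is 0.0625. The fit was tested on simulated data with independent errors of the same SD for all genes. Those data held no shared baseline error, so that check cannot cover it.

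Named genes were the members, controls, genes of the pathway, receptor and marker lists, genes overlapping a member and the 3 list genes nearest to CHRM3. Members and lists were chosen with earlier results of these data known, and no set test was made. The values of 3 listed genes are not reported here, though list counts include them. Alternatives covered the controls, the SD multiple, the probe summary, single probes, normalization, the filter on dim genes, the test and the arrays used.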

Additional observations from a re-analysis of the deposited data

Results flagged for a closer look

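Among 100 sets of 4 values, which were the members' distances, levels and probes and the distances of the pathway genes, 6 had 1 array whose gap to the nearest other array was too large a share of the range by Dixon's critical value. By chance about 1 in 20 sets would be marked. In the family this was probe 2 of CHRM1, whose value on replicate 4 was 8.41 log2 units while the remaining arrays read 7.39 to 7.45 (gap over range 0.938). The other 5 were distances of pathway genes. SLC18A3 was lowest on replicate 2, at -3.51 (ratio 0.872). GRK6 was lowest on replicate 3, at 1.10 (0.837), and so was CHRNA1, at -4.35 (0.836). RGS4 and GNAI2 were highest on replicate 1, at -2.05 (0.832) and 4.56 (0.830). The causes were not tested.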

How the results depend on the processing

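CHRM1, CHRM2, CHRM4 and CHRM5 lay below the baseline under each of the alternatives run, at most -0.27 log2 units, for CHRM4 without AFG2A and SPATA13 as controls. CHRM3 ranged from -1.60 to 3.15 over 23 alternatives, was positive in 21 and passed the limma test in 13, with adjusted p from 4.5e-14 to 1. One of these, centring arrays on their medians, moves gene and baseline alike and so cannot change a distance or its test. It lay below the baseline with 3 SD (-0.49) and on probe 2 alone (-1.60), and then 0 members were detected. The test no longer passed for CHRM3 with the mean of log2 probe values (0.55), their median (0.59), probe 3 alone (0.45), replicates 1 and 2 (0.81), 3 and 4 (0.84) or 1 and 3 (0.14). In the single-probe settings only the members' values were replaced, so the standard error of 0.351 came from levels averaged over probes. Those tests thus do not measure the spread of a single probe. Leaving out 1 replicate gave 0.51 to 1.13. On all 4 arrays at once 0 members lay above the baseline. Quantile normalization of the 4 arrays together gave 0.81 for CHRM3. The causes of these shifts were not tested. No paired analysis was possible because the design holds 1 group.

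List counts moved by over 1.5 times mostly with the controls and the SD multiple. With 3 SD, adenylyl cyclases went from 5 to 3, protein kinase C from 5 to 3, store-operated entry from 3 to 1, and other aminergic receptors from 1 to 0. Without AFG2A and SPATA13, Gi/o subunits went from 3 to 5, acetylcholine handling from 0 to 2, nicotinic subunits from 4 to 8, other aminergic receptors from 1 to 8 and olfactory receptor genes from 1 to 17. The count over all 17217 genes moved in the same directions, from 9074 to 6731 with 3 SD and to 12747 without AFG2A and SPATA13. The direction of these shifts is thus not particular to the lists. Their size was not shared, since the count over all genes stayed within 1.5 times of its main value.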
